A study of Mus musculus with 8 samples.

Results

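Fc receptors bind the constant part of antibodies, and 7 genes of such receptors and related proteins were examined in bone marrow-derived macrophages (BMDM) treated with bilirubin. They are the IgG receptor genes *Fcgr1*, *Fcgr3* and *Fcgr4*, their signaling chain *Fcer1g*, the inhibitory receptor *Fcgr2b*, the neonatal receptor *Fcgrt* and the Fc receptor-like scavenger receptor *Fcrls*. The genes were chosen by symbol, 7 of the 53819 gene symbols in the count table, and with the difference between bilirubin and vehicle in these libraries already known. Their values between the treatments are therefore a description, and no p-value is given for them. The study asked how bilirubin, an end product of heme breakdown that tumor cells can secrete, acts on macrophages. Marrow of 4 female Balb/CJ mice aged 8 weeks was differentiated in M-CSF (the macrophage growth factor, 25 ng/mL), which both groups received, and no genotype or transgene was named for the animals. After 5 days, 1 culture of each mouse received 2.5 µM bilirubin and the other DMSO as vehicle, and RNA was taken from the whole cultures 48 h later. This gave 8 libraries, 4 per group, paired by mouse.

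On a macrophage, the activating IgG receptors *Fcgr1*, *Fcgr3* and *Fcgr4* bind antibody-coated particles but have no strong signaling tail of their own. They associate with a dimer of the Fc receptor gamma chain made from *Fcer1g*, whose activating motif is phosphorylated by Src family kinases and then recruits the kinase Syk, leading to actin-driven engulfment. *Fcgr2b* binds the same antibodies and carries an inhibitory motif that recruits phosphatases, so the balance of activating and inhibitory receptors sets how strongly a macrophage answers to immune complexes. The neonatal receptor works differently. It binds IgG and albumin inside acidic endosomes, as a pair of the *Fcgrt* chain and beta-2 microglobulin, and returns them to the surface instead of the lysosome. *Fcrls* is best known as a gene typical of microglia, the macrophages of the brain.

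Libraries held 37747315 to 47071714 counts on genes with vehicle and 34142781 to 41054034 with bilirubin. All 7 genes had enough counts to be tested among 13722 genes, with 43 to 19556 counts per library. The cultures carried macrophage markers, since all 10 of a marker list (among them *Adgre1*, *Csf1r*, *Cd68* and *Lyz2*) were tested. Their summed level was 25240 to 25565 CPM (counts scaled to library size) with vehicle and 29703 to 31765 CPM with bilirubin, as *Adgre1*, *Itgam*, *Lyz2* and *Cd14* were upregulated. Summed B cell markers were at 15.9 to 19.1 CPM with vehicle and 13.5 to 19.0 CPM with bilirubin, most of it *Cd22*. The B cell list of 8 had 3 tested genes, and *Ighm* was downregulated, from 1.99 to 2.71 CPM to 0.773 to 1.64 CPM. Mast cell markers summed to at most 0.846 CPM, with 4 of 8 at 0 in every library, and markers of T and NK cells to at most 0.166 CPM. Neutrophil markers summed to 11.5 to 14.2 CPM with vehicle and 20.2 to 32.8 CPM with bilirubin, mostly *S100a8*. Dendritic cell markers summed to 39.3 to 43.7 CPM and 39.7 to 65.7 CPM (nearly all of it *Bst2*, which interferon also induces), monocyte markers to 3.23 to 4.21 CPM and 2.91 to 5.78 CPM, and stromal markers to 15.6 to 21.3 CPM and 11.8 to 22.9 CPM. Erythroid markers summed to at most 0.265 CPM. The part of these markers in the values below was not tested, and in bulk RNA fewer cells of a type and less RNA per cell cannot be told apart.

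At baseline, the signaling chain was far more abundant than the receptors that use it. Levels were compared between genes in TPM, which corrects the abundance of transcripts for their length. *Fcer1g* stood at a median of 1237 TPM (1188 to 1295 over the 4 vehicle libraries), at the 99.4th percentile of the tested genes. *Fcgr3*, the low-affinity activating receptor, followed with 465 TPM (443 to 476). The other members were an order lower. *Fcgr1*, the high-affinity receptor, had a median of 45.0 TPM but the range 31.9 to 57.0, so that it could not be placed above or below *Fcgr2b* (median 44.3 TPM, 42.7 to 49.2) or *Fcgrt* (median 34.6 TPM, 34.1 to 35.3). *Fcgr2b* was above *Fcgrt* in every vehicle library, and *Fcgrt* in turn was above *Fcgr4* (median 27.5 TPM, 25.1 to 30.1). *Fcrls* was lowest, with a median of 7.44 TPM (5.57 to 8.60). With bilirubin the medians were 1067 TPM for *Fcer1g*, 392 TPM for *Fcgr3*, 40.6 TPM for *Fcgr1*, 39.0 TPM for *Fcgr2b*, 22.2 TPM for *Fcgr4*, 21.8 TPM for *Fcgrt* and 1.04 TPM for *Fcrls*. The order was the same but for *Fcgrt* and *Fcgr4*, whose ranges then overlapped (19.0 to 33.4 TPM and 21.1 to 24.4 TPM).

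**Figure D1:**
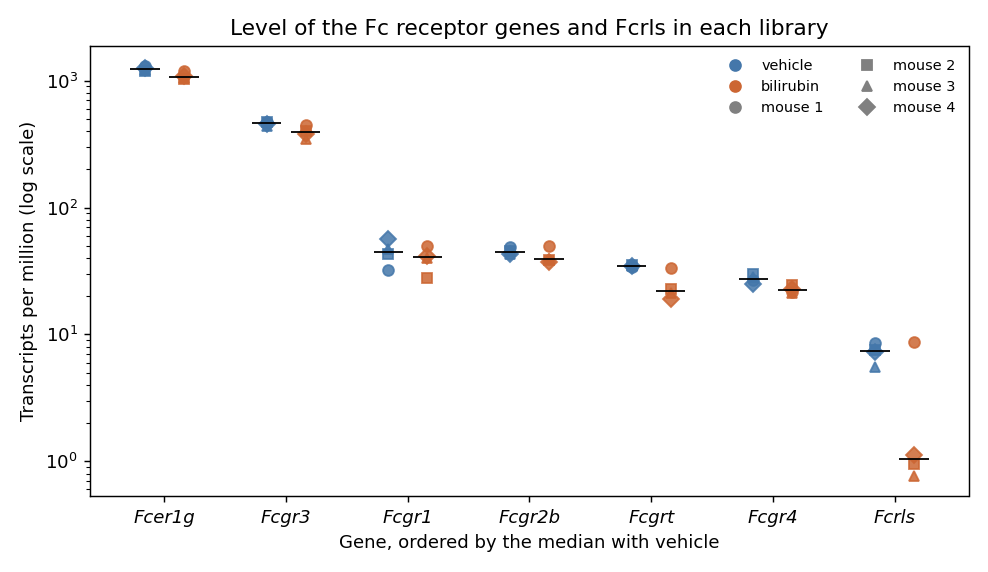
Level of each gene in TPM on a log axis, with 1 point per library, color for the treatment, shape for the mouse and a bar at the median of 4 libraries. *Fcer1g* and *Fcgr3* sit at 345 TPM or more in all libraries, the next 4 genes between 19.0 and 57.0 TPM, and *Fcrls* splits with bilirubin into mouse 1 at 8.77 TPM and the other mice at 0.769 to 1.12 TPM.

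With bilirubin, all 7 genes had a negative fitted difference, and their median log2 fold change of bilirubin over vehicle was -0.20, beside -0.0018 for all tested genes. By edgeR's quasi-likelihood test with the mouse in the model and an adjusted p under 0.05, 4 of the 7 were called, all of them lower (*Fcer1g*, *Fcgr3*, *Fcgrt* and *Fcrls*). Of all 13722 tested genes, 7.53% were called in either direction, 3.04% lower and 4.49% higher. The bilirubin culture was below the vehicle culture in all 4 mice for 5 members, as it was for 13.9% of all tested genes, and every bilirubin library was below every vehicle library for 3 members, as for 4.69% of all tested genes. Because these members were gathered with this contrast known, nothing is read from the counts. Sizes differed widely between members: the fitted level with bilirubin was 90.7% of vehicle for *Fcer1g*, 87.5% for *Fcgr3*, 71.2% for *Fcgrt* and 31.3% for *Fcrls*. None of these 4 calls was kept on leaving out any 1 of mice 2 to 4, while without mouse 1 all of them and *Fcgr1* were called. The calls over all tested genes moved the same way, from 1033 with all mice to 1910 without mouse 1. They were 634, 377 and 441 without mice 2, 3 and 4, so nothing particular to the members is read from this. Without the mouse in the model *Fcgrt* alone of the members was called, with 686 calls over all tested genes.

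**Figure D2:**
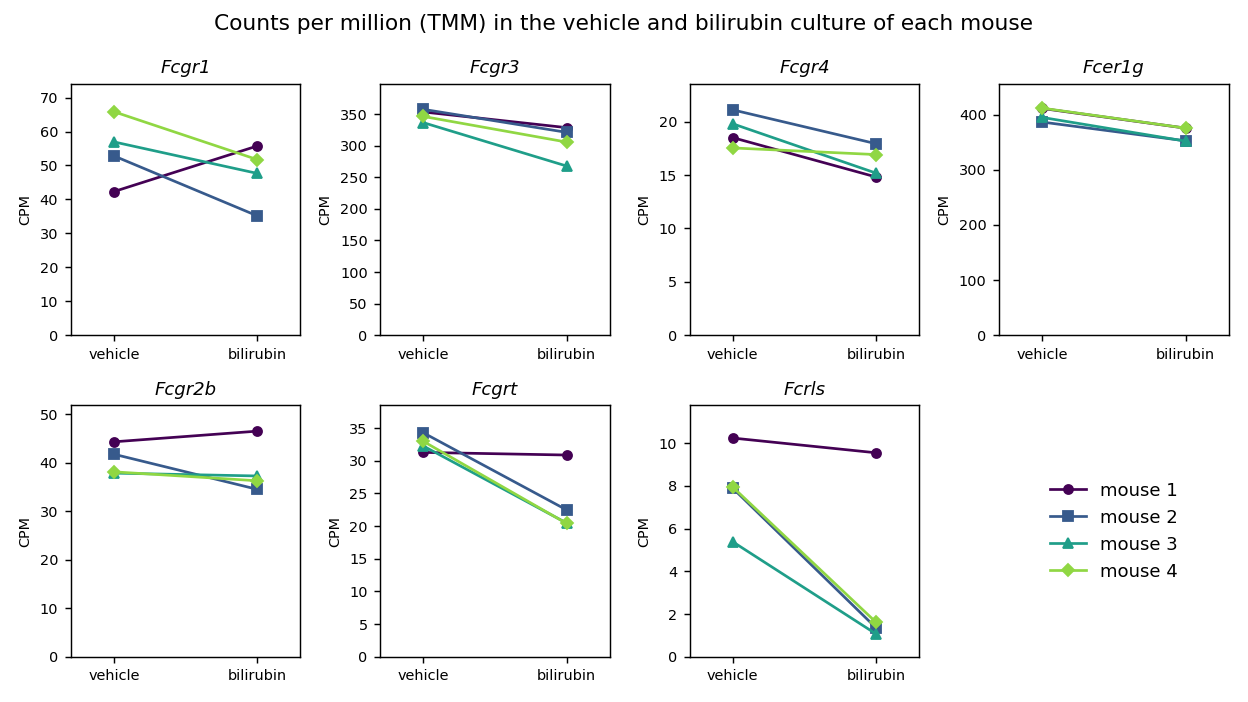
CPM of each gene (vertical axis, from 0) in the vehicle and bilirubin cultures, with a line joining the cultures of each mouse. Lines for *Fcgr3* and *Fcer1g* fall in all 4 mice, whereas for *Fcgrt* and *Fcrls* mouse 1 stays almost level (31.3 to 30.9 CPM and 10.2 to 9.55 CPM) and the other mice fall.

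*Fcer1g* encodes the gamma chain (86 amino acids) on which surface expression and signaling of the activating receptors depend. Its activating motif is a pair of tyrosines in the cytoplasmic tail, each followed at the third place by leucine or isoleucine. The stretch that codes for it is shown because every activating receptor described here signals through it. A search of the 7 coding sequences found this pattern 1 time in *Fcer1g* and 0 times in the other 6. It reads, from coding base 193 to 237 of the GRCm39 reference (chr1:171057458-171057641, minus strand, across an exon junction), with the tyrosine codons in capitals:
Fcer1g: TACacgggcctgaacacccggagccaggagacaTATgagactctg
The level of *Fcer1g* with vehicle was 411, 387, 395 and 412 CPM in mice 1 to 4, and with bilirubin 376, 353, 352 and 376 CPM. The bilirubin libraries were all below the vehicle libraries, and the differences of the 4 mice lay close together, at -0.13, -0.13, -0.17 and -0.13 on the log2 CPM scale. Vehicle cultures averaged 401 ± 12.5 CPM and bilirubin cultures 364 ± 13.5 CPM (SD, n = 4 each), with a log2 fold change of -0.14 (SE 0.03). It was -0.15, -0.14, -0.13 and -0.14 without mice 1 to 4 in turn. *Gm71631* overlaps *Fcer1g* on the same strand, so their reads cannot be told apart where they overlap. The same holds for *Mir6546* with *Fcgr3* and *Gm26110* with *Fcgr4*. Genes on the other strand overlap *Fcgr4*, *Fcgr2b* and *Fcgrt*. A single coding transcript held 99.3% to 99.6% of the *Fcer1g* TPM with vehicle and 99.2% to 99.7% with bilirubin.

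The low-affinity receptor genes lie side by side on chromosome 1 of GRCm39, with *Fcgr2b* at 170786186 to 170804177 on the minus strand, *Fcgr4* at 170846466 to 170857330 on the plus strand and *Fcgr3* at 170878738 to 170893549 on the minus strand. *Fcer1g* (171057141 to 171062219, minus strand) follows 163.6 kb further on, so that these 4 members fall within 276.0 kb. *Fcgr2b* and *Fcgr3* code for nearly the same extracellular part and for different tails. Over their whole coding sequences they were identical at 76.1% of 792 aligned bases, against 53.0% of 738 for *Fcgr2b* and *Fcgr4* and 59.8% of 747 for *Fcgr3* and *Fcgr4*. The difference is uneven, as a window of 150 bases in exon 4 shows, in which *Fcgr3* differs from *Fcgr2b* at 2 bases and *Fcgr4* at 62. The window is shown because the activating *Fcgr3* and the inhibitory *Fcgr2b* differ least there, among windows within a single exon and without alignment gaps. How well reads can be told apart there was not measured. Capitals mark the bases that differ from *Fcgr2b*, in the reference sequence at chr1:170794092-170794241 (minus strand), chr1:170881585-170881734 (minus strand) and chr1:170853141-170853290 (plus strand), in that order:
Fcgr2b: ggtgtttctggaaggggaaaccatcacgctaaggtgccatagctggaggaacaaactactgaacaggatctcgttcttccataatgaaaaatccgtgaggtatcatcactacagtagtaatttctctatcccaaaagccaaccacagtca
Fcgr3: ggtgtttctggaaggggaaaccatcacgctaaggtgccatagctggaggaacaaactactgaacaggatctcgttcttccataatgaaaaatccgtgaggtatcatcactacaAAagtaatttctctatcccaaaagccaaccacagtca
Fcgr4: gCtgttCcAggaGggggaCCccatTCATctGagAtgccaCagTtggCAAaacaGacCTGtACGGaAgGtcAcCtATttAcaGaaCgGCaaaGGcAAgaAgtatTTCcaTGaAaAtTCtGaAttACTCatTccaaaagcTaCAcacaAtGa
Of the stretches of 31 coding bases, 233 were shared by *Fcgr2b* and *Fcgr3*, which is 27.4% of those of *Fcgr2b* and 30.2% of those of *Fcgr3*, and none was shared by any other pair of members. Salmon divides reads from shared stretches by a model, so values of *Fcgr2b* and *Fcgr3* are less certain than those of the other members. Their counts were therefore also summed. The summed counts had a log2 fold change of -0.18 (SE 0.04), also with *Fcgr4* added (-0.18, SE 0.04).

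*Fcgr3*, an activating receptor for immune complexes, accounted for most of the activating receptor transcripts, with 86.5% ± 1.83 (SD, n = 4) of the summed TPM of *Fcgr1*, *Fcgr3* and *Fcgr4* with vehicle and 86.3% ± 1.57 (SD, n = 4) with bilirubin. Its level was 354, 358, 337 and 347 CPM with vehicle and 329, 321, 268 and 306 CPM with bilirubin in mice 1 to 4. All bilirubin libraries were below all vehicle libraries, with the lowest value in mouse 3. The vehicle mean of *Fcgr3* was 349 ± 9.22 CPM and the bilirubin mean 306 ± 27.1 CPM (SD, n = 4 each), and the fitted log2 change was -0.19 (SE 0.04). The differences of mice 1 to 4 were -0.11, -0.16, -0.33 and -0.18, and the fitted change was -0.22, -0.21, -0.15 and -0.20 when each was left out. Its main coding transcript held 82.7% to 85.7% of its TPM with vehicle and 81.9% to 86.4% with bilirubin.

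*Fcgr4*, another activating receptor, was lower in each of the 4 mice but was not called. It stood at 18.5, 21.1, 19.8 and 17.5 CPM with vehicle and 14.8, 17.9, 15.2 and 16.9 CPM with bilirubin. The groups overlapped in CPM, since mouse 2 with bilirubin exceeded mouse 4 with vehicle, whereas in TPM they did not (25.1 to 30.1 and 21.1 to 24.4). On average *Fcgr4* was at 19.2 ± 1.55 CPM in vehicle and 16.2 ± 1.47 CPM in bilirubin cultures (SD, n = 4 each), with a log2 fold change of -0.25 (SE 0.07). Mouse 4 differed least, by -0.05, and mice 1 to 3 by -0.32, -0.23 and -0.38.

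*Fcgr1* lies apart from the other IgG receptors, on chromosome 3 (96190225 to 96201338, minus strand), and is known as a gene that interferon gamma induces. On the TPM scale it was the most variable of the receptors among vehicle cultures (coefficient of variation 23.2%). In CPM, *Fcrls* varied more among them, relative to its mean. *Fcgr1* stood at 42.3, 52.8, 56.9 and 65.8 CPM with vehicle in mice 1 to 4, against 55.7, 35.2, 47.7 and 51.7 CPM with bilirubin. The groups overlapped, and mouse 1 went the other way from the rest, with differences of 0.40, -0.59, -0.26 and -0.35 on the log2 scale. The means of *Fcgr1* were 54.5 ± 9.77 and 47.6 ± 8.91 CPM (SD, n = 4 each), and the log2 fold change of -0.20 (SE 0.13) was not called. Without mouse 1 it was -0.39 and was called. Of a list of 14 tested interferon response genes, 2 passed the threshold, both upregulated, with a median log2 fold change of 0.59. In the other direction edgeR called 0 of the 14 (1 at an unadjusted p under 0.05, 1 by DESeq2 and 0 by voom). The 2 upregulated genes were *Gbp5*, an interferon-inducible GTPase (log2 fold change 1.44, SE 0.30, adjusted p = 0.0233 by edgeR), and its relative *Gbp2* (0.65, SE 0.12, adjusted p = 0.0155 by edgeR). Neither passed without mouse 3 or mouse 4, with log2 fold changes over the mice left out of 1.17 to 1.75 for *Gbp5* and 0.57 to 0.78 for *Gbp2*. The list's median difference was 1.16, -0.0009, 0.45 and 0.58 in mice 1 to 4, so mouse 1 was highest and mouse 2 lowest, as for *Fcgr1*. Their relation was not tested. A transcript marked for nonsense-mediated decay held 16.6% to 31.3% of the *Fcgr1* TPM with vehicle and 27.9% to 32.0% with bilirubin, and the coding transcript the rest.

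*Fcgr2b*, the inhibitory receptor, differed little between the treatments. Its tyrosine motif, to which the phosphatases SHIP-1 and SHP-1 bind, is shown because it sets the inhibitory receptor apart in function. The same loose pattern is common, with 1 match in the coding sequence of *Fcgr2b*, 3 in *Fcgr1*, 1 each in *Fcgr4*, *Fcer1g* and *Fcgrt* and 0 in *Fcgr3* and *Fcrls*, so a match alone does not mark an inhibitory receptor. The *Fcgr2b* motif follows with the tyrosine codon in capitals, at coding bases 808 to 825 in exon 7 (chr1:170788640-170788657, minus strand, GRCm39):
Fcgr2b: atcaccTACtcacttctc
*Fcgr2b* stood at 44.3, 41.7, 37.8 and 38.1 CPM with vehicle and 46.5, 34.5, 37.2 and 36.3 CPM with bilirubin in mice 1 to 4. The groups overlapped and the mice disagreed, with differences of 0.07, -0.27, -0.02 and -0.07. Means were 40.5 ± 3.09 CPM for vehicle and 38.6 ± 5.36 CPM for bilirubin cultures (SD, n = 4 each), and the log2 fold change of -0.07 (SE 0.06) was not called. Of its 7 transcripts, the coding form of 879 bases held 67.8% to 87.4% of the TPM with vehicle and 73.3% to 82.1% with bilirubin. The longer form of 936 coding bases ranged from 0% to 19.0% with vehicle and from 0.495% to 12.1% with bilirubin, and a form of 1020 coding bases from 6.35% to 7.55% and from 5.57% to 8.96%. Their ranges overlapped between the treatments.

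The balance of activating over inhibitory receptors was taken as the summed TPM of *Fcgr1*, *Fcgr3* and *Fcgr4* over that of *Fcgr2b*. With vehicle it was 10.9, 12.01, 12.1 and 12.5 in mice 1 to 4 and with bilirubin 10.3, 11.9, 10.2 and 11.9. It was lower with bilirubin in all 4 mice, by little in mouse 2, and the groups overlapped (11.9 ± 0.697 and 11.1 ± 0.932, SD, n = 4 each). Taken singly over *Fcgr2b*, each of *Fcgr1*, *Fcgr3* and *Fcgr4* was lower in 3 mice. The balance rests mainly on *Fcgr3* over *Fcgr2b*, whose shared reads are divided by a model, so it is as uncertain as those values. *Fcer1g* exceeded the activating receptors together, at 2.32 ± 0.100 times their summed TPM with vehicle and 2.40 ± 0.152 with bilirubin (SD, n = 4 each). This ratio was higher with bilirubin in 3 mice and lower in mouse 1.

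*Fcgrt* encodes the heavy chain of the neonatal receptor and lies on chromosome 7 (44742412 to 44756819, minus strand, GRCm39). On the TPM scale it was the steadiest of the members with vehicle, with a coefficient of variation of 1.49%, against 26.7% with bilirubin. In CPM, *Fcgr3* and *Fcer1g* varied less with vehicle, relative to their means. *Fcgrt* stood at 31.3, 34.3, 32.3 and 33.0 CPM with vehicle and 30.9, 22.5, 20.5 and 20.4 CPM with bilirubin in mice 1 to 4. All bilirubin libraries were below all vehicle libraries, but mouse 1 only just, with a difference of -0.02 on the log2 scale against -0.61, -0.66 and -0.69 in mice 2 to 4. The mean *Fcgrt* level was 32.7 ± 1.26 CPM for vehicle and 23.6 ± 4.97 CPM for bilirubin cultures (SD, n = 4 each), and the fitted log2 change was -0.49 (SE 0.11). It was -0.66 without mouse 1 and -0.45, -0.44 and -0.42 without mice 2, 3 and 4.

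The partner of *Fcgrt*, beta-2 microglobulin, went the other way. *B2m*, which also pairs with MHC class I, was upregulated from 733, 755, 745 and 774 CPM with vehicle to 1040, 869, 916 and 964 CPM with bilirubin in mice 1 to 4. Its log2 fold change was 0.33 (SE 0.05, adjusted p = 0.00443 by edgeR), it was higher in 4 of 4 mice, and it passed without any 1 of the 4 mice. The TPM of *B2m* over that of *Fcgrt* was 49.3, 48.0, 48.3 and 49.9 with vehicle and 71.9, 82.1, 95.0 and 106.5 with bilirubin, or 48.9 ± 0.873 and 88.9 ± 15.1 (SD, n = 4 each). The groups lay apart. Of 9 tested genes of the endosomal route the neonatal receptor takes, *B2m* was upregulated and the remaining 8, Rab GTPases among them, did not pass. By edgeR 0 were downregulated, also at an unadjusted p under 0.05, by DESeq2 and by voom. Their median log2 fold change with *B2m* was 0.03.

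*Fcrls* differed most of the members, and differently between mice. The gene lies on chromosome 3 (87156616 to 87181827, minus strand), where the GRCm39 annotation used here calls it *Fcrl2*. It had 487, 298, 235 and 338 counts with vehicle and 332, 49, 43 and 65 with bilirubin in mice 1 to 4, or 10.2, 7.89, 5.39 and 7.95 CPM and 9.55, 1.36, 1.07 and 1.62 CPM. Mouse 1 kept its level, whereas in mice 2 to 4 the bilirubin cultures were far below any vehicle culture, so the groups overlapped only through mouse 1. The differences on the log2 scale were -0.10 in mouse 1 and -2.50, -2.28 and -2.26 in mice 2 to 4. Vehicle cultures averaged 7.87 ± 1.98 CPM and bilirubin cultures 3.40 ± 4.11 CPM (SD, n = 4 each), and the coefficient of variation on the TPM scale was 17.3% and 135%. The log2 fold change was -1.68 (SE 0.39), or -2.39 without mouse 1 and -1.42, -1.51 and -1.50 without mice 2, 3 and 4. With the mouse left out of the model it was -1.23, and with limma's voom -1.27, neither of them called. The shorter of 2 coding transcripts held 14.1% to 38.5% of its TPM with vehicle and 0% in mice 2 to 4 with bilirubin, where few counts remained.

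**Figure D3:**
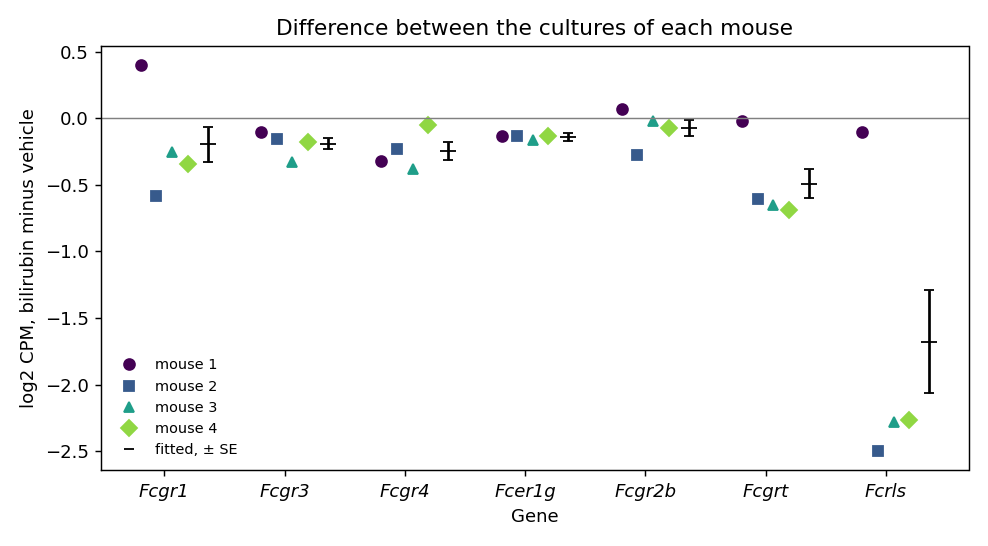
Difference of bilirubin minus vehicle in log2 CPM for each mouse (points) beside the fitted log2 fold change with its SE (bar). The points of *Fcer1g* lie within -0.17 to -0.13, while mouse 1 stands apart at -0.02 for *Fcgrt* and -0.10 for *Fcrls* and is above 0 for *Fcgr1* and *Fcgr2b*.

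Genes known with *Fcrls* from the microglial program were compared in the same fit. Of 12 listed, 9 were tested, 3 were downregulated and 1 was upregulated, with a median log2 fold change of -0.34. *Cx3cr1*, the fractalkine receptor, was downregulated from 212, 162, 185 and 194 CPM to 105, 93.1, 82.8 and 91.1 CPM in mice 1 to 4 (log2 fold change -1.02, SE 0.06, adjusted p = 5.00e-05 by edgeR). In *Cx3cr1* mouse 1 differed by about as much as the others, by -1.01 against -0.80, -1.16 and -1.09. The list's median difference was 0.16 in mouse 1 and -0.27, -0.36 and -0.61 in the others, so mouse 1 stood above them there as in *Fcrls*. In *P2ry12*, a purinergic receptor of the list that did not pass and was picked after its values were seen, the differences were 1.37, -0.56, -0.39 and -0.68, and it passed without mouse 1 (log2 fold change -0.56). *Tgfbr1*, a TGF-beta receptor, fell by 0.34 on the log2 scale (SE 0.04, adjusted p = 0.00106 by edgeR). *Cx3cr1* and *Tgfbr1* passed without any 1 of the 4 mice. *Tmem119* was upregulated (log2 fold change 0.41, SE 0.10, adjusted p = 0.0410 by edgeR) but did not pass without mouse 2, 3 or 4, with 0.34 to 0.48 over the mice left out.

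Genes whose levels followed each member most closely over the 8 libraries were sought, with a mean log2 CPM of 1 as the lower limit. These correlations are descriptions, since the libraries share treatment and mouse. For *Fcrls* the closest were *Selenop*, a selenium transport protein (Pearson r = 0.997), *Tcf4*, a transcription factor (0.995), and *Gna12*, a G protein subunit (0.994), all 3 of them downregulated with log2 fold changes of -0.56, -0.24 and -0.37. In mouse 1 they differed by 0.06, -0.01 and -0.07, and in mouse 2 by -0.81, -0.35 and -0.49. For *Fcgrt* they were *Pgap6* (r = 0.985), *Bmp2k* (0.983) and *Tmem65* (0.982), and *Fcgrt* and *Fcrls* themselves had r = 0.945. For *Fcer1g* they were *Vav3*, an exchange factor downstream of Fc receptors (r = 0.981), *Sulf2* (0.980) and *Treml1* (0.976), and for *Fcgr3* they were *Colec12* (0.990), *Fam110b* (0.989) and *Rdh10* (0.977). For *Fcgr4* they were *Akirin1* (r = 0.989), *Map1lc3a* (0.969) and *Itgb3* (0.962), and for *Fcgr2b* they were *Man1a* (0.985), *Tlr3* (0.978) and *Zfp385a* (0.975). *Fcgr1* was followed by *Mlycd* (r = 0.976), *Rgs18* (0.938) and *Slc28a2* (0.937).

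Downstream of the receptors, the larger changes were in some of the kinases that act on the gamma chain, while most kinases of the list did not rise. Of 10 tested kinases, 4 were upregulated and 1 was downregulated, and the median log2 fold change was -0.05. *Fgr*, a Src family kinase of myeloid cells, rose from 5.93, 4.48, 6.63 and 6.11 CPM with vehicle to 20.3, 12.8, 22.4 and 21.6 CPM with bilirubin (log2 fold change 1.72, SE 0.08, adjusted p = 1.70e-05 by edgeR). *Src* rose from 8.25, 9.03, 10.5 and 8.14 CPM to 19.7, 20.5, 28.2 and 26.1 CPM (1.39, SE 0.09, adjusted p = 7.58e-05 by edgeR). For both, every bilirubin library was above every vehicle library. *Syk*, which docks on the phosphorylated chain, rose from 353 ± 19.0 CPM to 410 ± 21.6 CPM (SD, n = 4; 0.22, SE 0.03, adjusted p = 0.00536 by edgeR), but did not pass without mouse 3 or mouse 4 (0.20 to 0.24 over the mice left out). *Tec* was downregulated by a small amount (-0.16, SE 0.04, adjusted p = 0.0467 by edgeR) and did not pass without mouse 2, 3 or 4 (-0.18 to -0.14 over the mice left out) or by DESeq2.

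Adaptors and lipid-signaling enzymes were mostly near 0. Of 26 tested, 2 were upregulated and 1 was downregulated, with a median log2 fold change of -0.03. *Pik3r5*, a regulatory subunit of PI3-kinase gamma, rose from 222 ± 10.9 CPM to 278 ± 13.9 CPM (SD, n = 4; log2 fold change 0.33, SE 0.03, adjusted p = 9.66e-04 by edgeR) and passed without any 1 of the 4 mice. *Prkcd*, a protein kinase C (0.15, SE 0.04, adjusted p = 0.0418 by edgeR), and *Cblb*, a ubiquitin ligase that limits such signaling (-0.17, SE 0.04, adjusted p = 0.0499 by edgeR), did not pass without mouse 2, 3 or 4 (0.12 to 0.18 and -0.21 to -0.14 over the mice left out).

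Of 15 tested genes of the actin machinery, 3 were upregulated and 1 was downregulated, and the median log2 fold change was 0.05. *Myo10*, a motor of phagocytic cups and filopodia, rose from 65.1 ± 2.60 CPM to 93.3 ± 10.8 CPM (SD, n = 4; log2 fold change 0.51, SE 0.05, adjusted p = 5.62e-04 by edgeR) and passed without any 1 of the 4 mice. *Rac2*, the hematopoietic Rac GTPase, rose by 0.18 (SE 0.03, adjusted p = 0.0137 by edgeR) and *Arpc1b*, a subunit of the actin-branching complex, by 0.15 (SE 0.03, adjusted p = 0.0226 by edgeR), neither of which passed without mouse 2, 3 or 4 (0.16 to 0.20 and 0.14 to 0.17 over the mice left out). *Wipf1*, a partner of the actin regulator WASP, was downregulated (-0.20, SE 0.03, adjusted p = 0.0108 by edgeR) and did not pass without mouse 3 or mouse 4 (-0.22 to -0.18 over the mice left out).

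Of 10 tested effectors of the inhibitory receptor, 2 were upregulated and 1 was downregulated, with a median log2 fold change of 0.03. *Inppl1*, which encodes the lipid phosphatase SHIP-2, fell from 395 ± 6.58 CPM to 311 ± 16.6 CPM (SD, n = 4; log2 fold change -0.35, SE 0.04, adjusted p = 9.73e-04 by edgeR), also without any 1 of the 4 mice. Its relative *Inpp5d*, which encodes SHIP-1, the phosphatase through which *Fcgr2b* mainly acts, had a log2 fold change of -0.11 (SE 0.03) and did not pass (adjusted p = 0.0678 by edgeR). It passed without mouse 1 (-0.13). *Ptpn6*, which encodes the tyrosine phosphatase SHP-1, was upregulated (0.21, SE 0.04, adjusted p = 0.0173 by edgeR), though not without mouse 3 or mouse 4 (0.18 to 0.24 over the mice left out). *Ptprc*, which encodes CD45, a phosphatase that also activates Src kinases, was upregulated by 0.15 (SE 0.03, adjusted p = 0.0215 by edgeR) and did not pass without mouse 2, 3 or 4 (0.14 to 0.16 over the mice left out).

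Taking the kinases, adaptors, actin genes and inhibitory effectors as 61 tested genes, 11 were upregulated and 4 downregulated, which is 24.6% beside 7.53% of all tested genes, and their median log2 fold change was 0.01. Leaving out mice 1 to 4 in turn, 22, 9, 6 and 6 of them passed, beside 1910, 634, 377 and 441 of all tested genes. The lists were compiled with earlier results of these data known, so the share is given as a description.

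**Figure D4:**
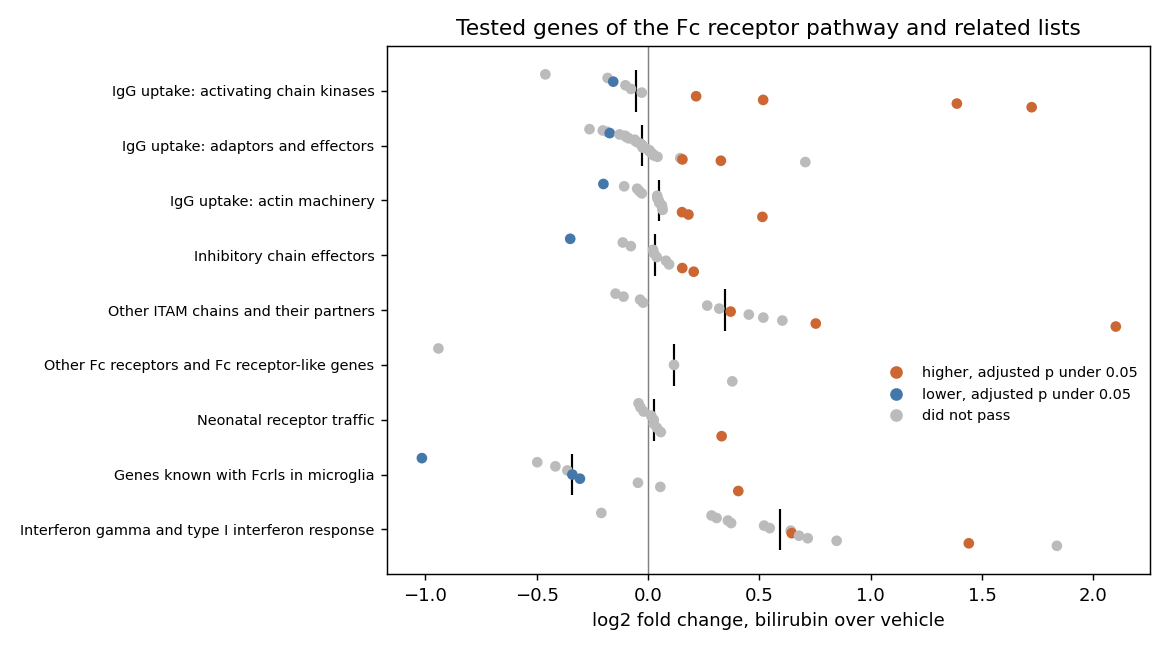
Log2 fold change of bilirubin over vehicle for every tested gene of each list (1 point per gene, colored where its adjusted p is under 0.05, with a bar at the list's median). The kinases *Fgr* and *Src* reach 1.72 and 1.39 and *Clec4e* reaches 2.10, while most adaptors and actin genes lie close to 0.

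A list of other activating chains and the receptors paired with them, in which *Tyrobp* and *Hcst* are chains and *Pirb* an inhibitory receptor, did not all follow *Fcer1g*. Of its 12 tested genes, 3 were upregulated by edgeR and 0 downregulated (2 at an unadjusted p under 0.05, 0 by DESeq2 and 0 by voom), with a median log2 fold change of 0.35. *Clec4e*, or Mincle, a lectin that itself signals through the chain made by *Fcer1g*, rose from 34.8, 29.5, 35.9 and 41.0 CPM to 129, 104.4, 212 and 177 CPM in mice 1 to 4 (log2 fold change 2.10, SE 0.11, adjusted p = 3.51e-05 by edgeR). Every bilirubin library was above every vehicle library, in contrast to the lower *Fcer1g* in the same cultures. *Sirpb1a*, which pairs with the chain made by *Tyrobp*, rose by 0.75 (SE 0.06, adjusted p = 3.81e-04 by edgeR), and *Pirb*, the inhibitory counterpart of activating paired receptors, by 0.37 (SE 0.05, adjusted p = 0.00314 by edgeR). All 3 passed without any 1 of the 4 mice. *Tyrobp*, the other common activating chain, had a log2 fold change of -0.11 (SE 0.03) and did not pass (adjusted p = 0.0851 by edgeR). Its means were 503 ± 24.2 CPM for vehicle and 466 ± 24.2 CPM for bilirubin cultures (SD, n = 4 each).

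Of 12 Fc receptors and Fc receptor-like genes outside the 7, most were near or at 0. *Fcer1a*, the IgE-binding chain of mast cells, had 0 counts in every library, as had *Ms4a2*, *Fcrl5* and *Fcrl6*, and 8 of the 12 never exceeded 3 counts. Only *Trim21*, a cytosolic IgG receptor, *Fcrl1* and *Fcrlb* were tested, and none passed by edgeR, DESeq2 or voom (the last 2 are named after their values were seen). At an unadjusted p under 0.05, 1 was higher and 0 were lower. *Trim21* had a log2 fold change of 0.12 (SE 0.11, adjusted p = 0.632 by edgeR), with the mice on both sides of 0 (0.49, -0.21, -0.08 and 0.26). *Fcrl1* was at 0.38 (SE 0.11, adjusted p = 0.0861 by edgeR) and *Fcrlb*, at under 0.6 CPM in all libraries, at -0.94 (SE 0.62, adjusted p = 0.458 by edgeR).

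Promoter sequence was compared as a shared feature that the choice of genes had not used. The 250 bases before the start of each gene, from RefSeq on GRCm38.p6 and so from another build than the coordinates above, were matched for all 7 members (for *Fcgr3*, the first of 2 starts listed). They were searched on both strands for GAGGAA, the core of sites of PU.1, the macrophage lineage factor, which 23.3% of 32851 promoters hold. Also searched were TTCNNNGAA, the STAT site (7.02%), the interferon response element, GAAA and again GAAA after 2 bases of any kind (2.98%), the kappaB site (7.25%) and TATAAA (12.4%). The PU.1 core was found in *Fcgr1*, *Fcgr3*, *Fcgr4* and *Fcrls*, at 55, 6, 22 and 144 bases before the start. *Fcgr1* also held a STAT site at 109 bases, *Fcgr3* and *Fcgr4* a kappaB site at 152 bases, *Fcgr4* an interferon response element at 73 bases and *Fcrls* TATAAA at 217 bases. *Fcer1g*, *Fcgr2b* and *Fcgrt* held none of these letters. The promoters of *Fcgr1* (chr3:96293970-96294219) and *Fcrls* (chr3:87263525-87263774), both on the minus strand, are shown because the differences between treatments varied most between mice in these members (SD 0.42 and 1.13 on the log2 scale), with the matches in capitals:
Fcgr1: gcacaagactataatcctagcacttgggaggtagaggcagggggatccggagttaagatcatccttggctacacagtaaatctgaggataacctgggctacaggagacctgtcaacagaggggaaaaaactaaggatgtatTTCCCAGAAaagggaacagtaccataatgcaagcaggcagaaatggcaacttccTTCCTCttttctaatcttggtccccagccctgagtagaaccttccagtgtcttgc
Fcrls: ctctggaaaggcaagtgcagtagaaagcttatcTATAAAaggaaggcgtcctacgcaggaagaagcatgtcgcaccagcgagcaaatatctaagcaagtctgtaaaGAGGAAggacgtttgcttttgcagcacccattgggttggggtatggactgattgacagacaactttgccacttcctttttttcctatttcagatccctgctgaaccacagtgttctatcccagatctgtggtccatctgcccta
The reference is of the C57BL/6J strain, whereas the mice were Balb/CJ. A match is a description of these letters and says nothing about binding.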

How the data were processed

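RNA-seq of BMDM from 4 mice, a vehicle and a bilirubin culture each, was analysed. Per the labels and the study's methods, poly A-selected libraries were trimmed (Trim Galore 0.6.7, cutadapt 3.4), aligned with STAR 2.7.9a to GRCm39 and quantified with Salmon 1.10.1. The authors deposited a gene table of expected counts (estimated counts, 88.5% of them whole), not normalized, and 1 transcript table per library with estimated counts, TPM and transcript lengths.

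Rounded expected counts were fitted by edgeR 4.0.16 in R 4.3.3 (TMM scaling, filterByExpr with at least 10 counts and 15 in total, quasi-likelihood test, mouse and treatment in the model). Benjamini-Hochberg adjustment covered 13722 genes, with a threshold of 0.05. CPM are scaled by TMM, log2 CPM use a prior count of 2, and each standard error was derived from fold change and F. TPM were summed per gene. MAFFT 7.526 aligned coding sequences from the GRCm39 reference annotation, and promoters came from RefSeq on GRCm38.p6. Vehicle libraries held at least 37747315 and bilirubin libraries at least 34142781 counts. The script was tested on simulated data.

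Cultures were paired by mouse, as the labels give it and as the methods do. Deviations from the group means correlated by 0.108, 0.134, 0.108 and -0.0053 within mice 1 to 4, against -0.028 on average and at most 0.0751 between different mice. Alternatives were treatment alone, DESeq2 1.42.0, limma 3.58.1 voom, other scalings and filters, a transcript length offset, and each mouse left out.

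The 7 members and the gene lists were chosen with earlier results of these data known. The text names all members, from each pathway list at most the 4 genes with the smallest adjusted p in each direction among those past the threshold, *Syk*, *Inpp5d*, *Ptpn6*, *Tyrobp*, *B2m*, *Trim21* and *Fcer1a* regardless, and the 3 genes most correlated with each member. The values of some genes that this rule names are not reported here, though the counts of their lists include them.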

Additional observations from a re-analysis of the deposited data

Results flagged for a closer look

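Each member was examined for a mouse standing apart from the other 3, in its vehicle level, its bilirubin level and its difference, 21 groups of 4 values in all. In 3 of them the gap of 1 mouse to its nearest neighbor exceeded Dixon's critical value for 4 samples. For a single group, chance gives this in about 1 of 20 cases. All 3 were differences, and the members were gathered with this contrast known. The groups also share values, since each difference is made from levels examined here, so nothing is read from the number flagged. The difference of *Fcrls* was -0.10 (log2 CPM, bilirubin minus vehicle) in mouse 1, against -2.50 to -2.26 in the others. The difference of *Fcgrt* was -0.0186 in mouse 1, against -0.69 to -0.61 in the others. The difference of *Fcer1g* was -0.17 in mouse 3, against -0.13 in each of the others. What sets mouse 1 apart in *Fcrls* and *Fcgrt* was not tested.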

How the results depend on the processing

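No member's fold change, and not that of *Fcgr2b* and *Fcgr3* summed, changed sign in any of 12 alternatives. Over the mice left out in turn, 377 to 1910 genes passed, 0 to 5 members, and 6 to 22 pathway genes, and the summed *Fcgr2b* and *Fcgr3* ranged from -0.21 to -0.14 and lost its call without mouse 2, 3 or 4. Without the pairing, that is with no replicate block, 686 genes, 1 member (*Fcgrt*) and 11 pathway genes passed, and the summed pair was at -0.18 and was not called. With a transcript length offset, 579 genes, 0 members and 8 pathway genes passed (summed pair -0.19, not called), and *Fcgrt* was at -0.52 and *Fcrls* at -2.02. With no filter, 1692 genes and 6 members passed, *Fcgr1* and *Fcgr4* being added. Scaling by library size alone gave 527 higher and 556 lower genes, or 48.7% higher against 59.6% with TMM, and added *Fcgr4*. With voom, *Fcrls* was lost. The causes were not tested. DESeq2 (1074 genes), its size factors (1035) and a CPM above 1 in 4 libraries (1044) called the same 4 members. Counts were lowest for *Fcrls*, with 43 in 1 library, so its values carry the most counting error.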
